A study of Phanerodontia chrysosporium with 8 samples.

Results

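The 150 longest gene models of the white-rot fungus Phanerodontia chrysosporium, strain RP-78, were chosen by length alone out of 13602 models, which is 1.1% of the models. All models were ranked by the deposited gene length and the first 150 were kept, with ties broken by the order of the files. They were 14622 to 4830 bases long, with a median of 5805.5 bases against 1184 bases over all models. Of these members, 7 were above 10000 bases and 64 above 6000 bases, and together they held 4.85% of the summed model length. The last member and the model after it had the same length, so 1 model as long as the last member lay outside the set. Expression was not used in the choice.

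Polyadenylated RNA was sequenced from 8 libraries of strain RP-78 at 3 stages of fruiting. Vegetative mycelium (n = 3), the hyphal mat, was compared with the young fruiting body (n = 2), taken as initials that form a dense mat set off from the mycelium, and with the fruiting body (n = 3), taken when spore release had begun. The cultures were fruited on cellophane over malt and yeast agar, first at 37 °C in darkness for 7 days, then at 25 °C in a humid chamber with dim light. If mycelium was harvested before that move, which the labels do not say, the stage and the accompanying temperature, light and culture age cannot be told apart. All libraries came from whole tissue, so fewer cells of a type and less RNA per cell cannot be told apart in any difference below. The labels number the replicates within a stage and do not describe separate cultures, so each p-value reflects library-to-library spread, which may be technical.

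A fungal gene of this length usually encodes a large protein built of many domains or repeats. Proteins of this size known in fungi include the dynein heavy chain, the motor that carries cargo along microtubules, and midasin, which works in the assembly of the large ribosomal subunit. They also include the TOR kinase, which couples growth to nutrients, the vacuolar protein sorting Vps13 family at membrane contact sites, and polyketide and non-ribosomal peptide synthetases, the modular enzymes of secondary metabolism. A long transcript also collects more sequencing fragments than a short one at the same number of molecules. The files do not pair model identifiers with gene names, so which of the 150 models encode any of these proteins was not identified here. Models are therefore given by identifier and length rank, with no function.

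Uniquely mapped reads ranged from 16144543 to 35837246 per library, and 6 libraries shared one flowcell while fruiting body replicates 1 and 3 were on another. Levels are given as RPKM, reads scaled to model length and to TMM-scaled library size, and can be set side by side between models. Differences between stages are log2 fold changes from edgeR's quasi-likelihood test on unique reads of all models, given with their SE. A model is described as called where its Benjamini-Hochberg adjusted p over all 12510 models tested was below 0.05.

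Fruiting body replicate 3 stood apart from the other fruiting bodies in the long models, as it did in the whole table. Over the members, the r of its log2 CPM with the other 2 fruiting bodies was 0.883 to 0.902 and with the mycelium libraries 0.883 to 0.907, while replicates 1 and 2 correlated with each other at 0.982 and with mycelium at 0.761 to 0.844. These correlations are across models and carry no test. The number of members called in each comparison is given with and without it. Other counts, such as those by direction, fold change or overlap and of steady members, are given with all 8 libraries.

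Nearly all of the long models were transcribed at every stage, at ordinary levels. In mycelium 146 of the 150 members reached at least 1 RPKM in every library, which is 97.3%, against 87.6% of all models. At each of the fruiting stages 145 members did so (96.7%), against 87.6% and 85.2% of all models. High levels were rare among the 150 members. At least 100 RPKM in every library was reached by 2 members at the mycelial stage, 3 as young fruiting bodies and 1 as fruiting bodies. Among all 13602 models, 1216, 1318 and 1139 did so. The median over the 147 members tested was 23.7 RPKM for mycelium, 21.4 RPKM for young fruiting bodies and 22.2 RPKM for fruiting bodies, beside 21.1, 22.4 and 23.4 RPKM over all models tested. The median member thus lay near the median model per length, but it had 2951 unique reads per library, against 709 for the median of all models tested.

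The share of all unique reads that fell on the 150 models was similar at the 3 stages. It was 2.63, 2.67 and 2.72% in the mycelium libraries (mean 2.67% ± 0.0432, SD, n = 3). In young fruiting bodies it was 2.5 and 2.81% (2.66% ± 0.217, SD, n = 2). The 3 fruiting bodies gave 2.22, 2.51 and 2.77% (2.5% ± 0.276, SD, n = 3). The highest of these values was in a young fruiting body and the lowest in a fruiting body, and the ranges of the stages overlapped. No test was run on this summed share. The 5 members with the highest levels took 11.8% of the members' reads.

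Of the 150 members, 3 had too few reads to be tested, which is 2.00% against 8.03% of all models. Models 2970314 (rank 12, 7791 bases) and 3083028 (rank 109, 5196 bases) had no read, unique or not, in any library. A count of 0 allows up to 3 reads per library, which is 0.0116 to 0.0237 RPKM for model 2970314 and 0.0173 to 0.0355 RPKM for model 3083028, by counting error alone. Model 7932 (rank 88, 5508 bases) had 3 reads in all, 2 in mycelium replicate 2 and 1 in young fruiting body replicate 1. These 3 models were also the only members absent from the authors' deposited expression matrix. In 124 members every read was unique, while 3 members had over 5% of their reads on other models too and their values are uncertain. These were the members at rank 18 (5.76% not unique), rank 50 (7.98%) and rank 79 (18.2%).

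The 5 longest models covered a wide range of levels, and none of them passed the test in any comparison with all 8 libraries. Model 3028490, the longest at 14622 bases, had 4.70, 4.06 and 4.80 RPKM in mycelium, 5.28 and 5.64 RPKM in young fruiting bodies, and 4.32, 5.26 and 6.14 RPKM in fruiting bodies. Its young fruiting body values lay above all 3 mycelium values, while its fruiting body values overlapped both other stages. Model 2980089 (12210 bases) had 9.94, 7.35 and 9.44 RPKM in mycelium, 8.91 and 10.5 RPKM in young fruiting bodies, and 5.58, 7.01 and 7.51 RPKM in fruiting bodies. The fruiting body values of this model lay below both young fruiting body values, by -0.54 ± 0.22 on the log2 scale (SE), at an adjusted p of 0.591 in edgeR's test.

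Model 3027436 (11796 bases) had 61.2 and 71.5 RPKM in young fruiting bodies, against 39.9, 38.3 and 22 RPKM in mycelium. In fruiting body replicates 1 and 2 it had 63.8 and 65.1 RPKM, but replicate 3 stood at 15.2 RPKM, below every other library. Its log2 fold changes against mycelium were 0.99 ± 0.55 (SE, adjusted p = 0.217) in young fruiting bodies and 0.52 ± 0.50 (adjusted p = 0.458) in fruiting bodies by edgeR's test. Without fruiting body replicate 3 the same values were 0.99 ± 0.29 (adjusted p = 0.0206) and 0.94 ± 0.29 (adjusted p = 0.0212), and both were called. In young fruiting bodies the fold change was the same in both fits and only its SE was smaller without that library. This model was not followed through the other alternatives, so whether other libraries also change these calls was not tested.

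Model 2905431 (10884 bases, the fifth longest) was the most abundant of these 5. Its levels were 38.5, 41.1 and 64.5 RPKM in the 3 fruiting bodies, in order of replicate, and 47.1 and 54.6 RPKM in young fruiting bodies, against 103, 80.9 and 66.7 RPKM in mycelium. Every fruiting body value lay below every mycelium value, with replicate 3 closest to mycelium. The log2 fold change of fruiting bodies against mycelium was -0.80 ± 0.29 (SE) with an adjusted p of 0.0659 in edgeR's test, and -1.07 with an adjusted p of 0.0083 without fruiting body replicate 3. Model 3035243 (11080 bases) had 17.4, 11.8 and 12.1 RPKM in mycelium, 13 and 11.5 RPKM in young fruiting bodies, and 8.00, 10.1 and 11.6 RPKM in fruiting bodies. Its fruiting body values all lay below the mycelium values, by a narrow margin in replicate 3, and it was not called.

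**Figure D1:**
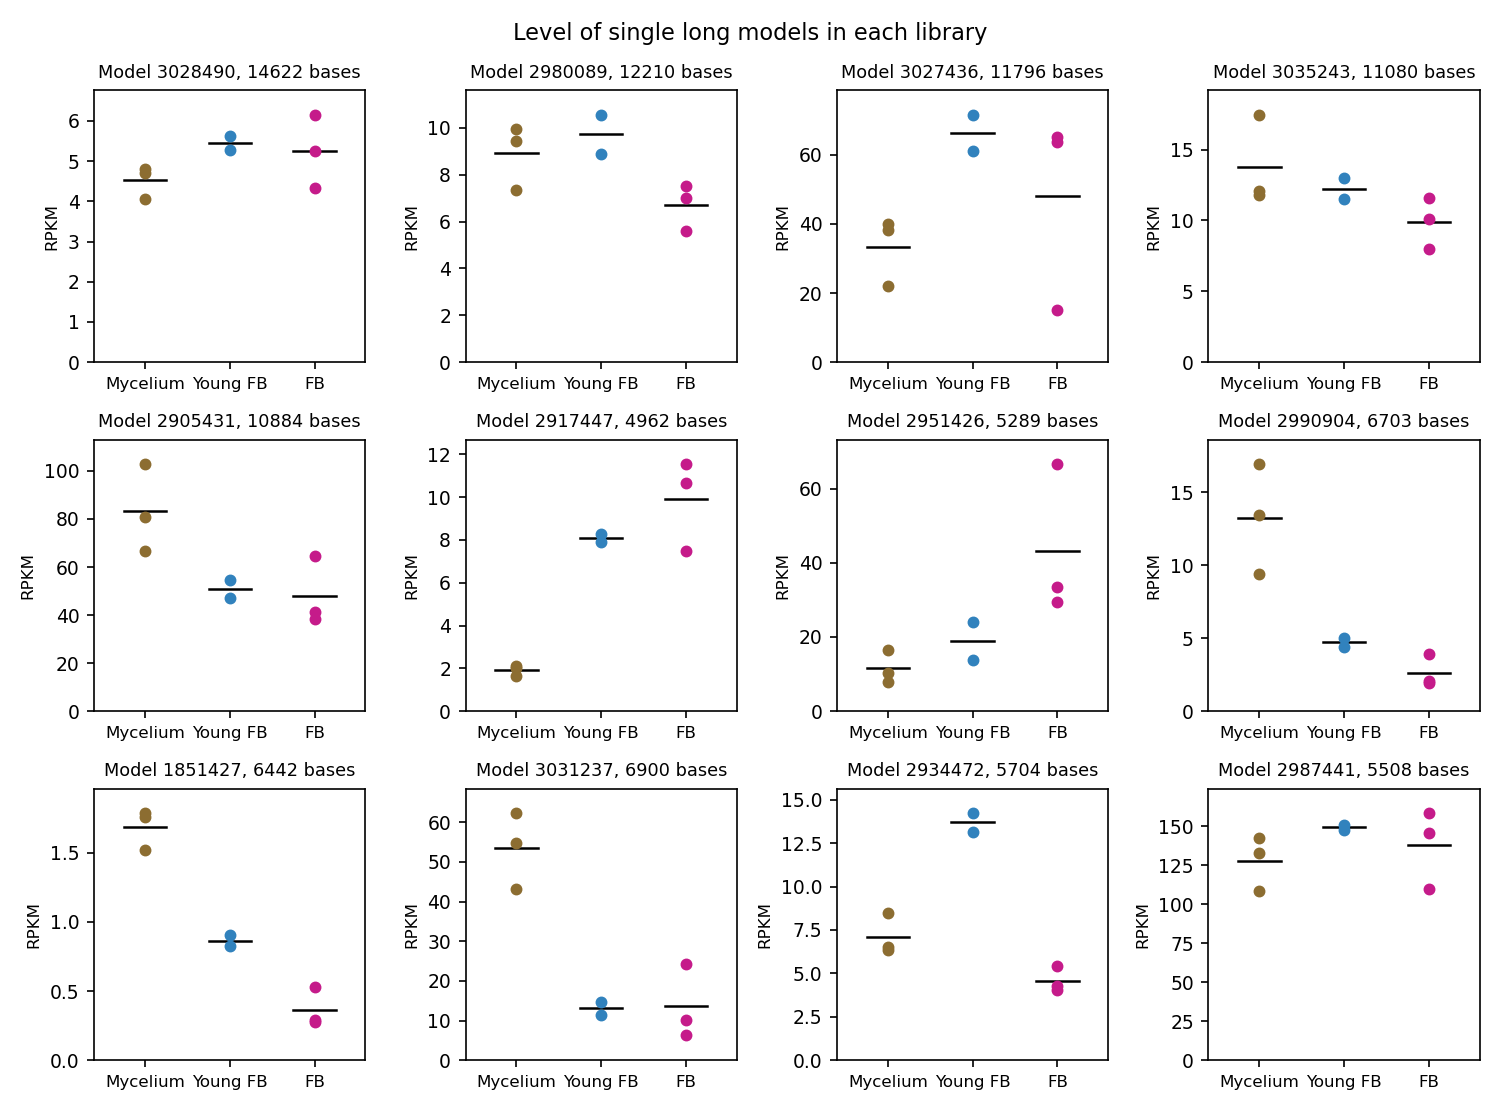
RPKM of 12 members in each library, 1 panel per model, with the 3 stages along the x axis, mycelium first, a point for each library and a line at the mean of each stage. Among the panels, model 2987441 stayed between 108 and 158 RPKM in all 8 libraries, while model 2990904 had 1.90 to 3.91 RPKM in fruiting bodies, against 9.37 to 16.9 RPKM in mycelium.

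None of the 5 most abundant long models was called in any comparison with all 8 libraries. Model 2987441 (rank 87, 5508 bases) had the highest mean level, with 108, 142 and 133 RPKM in mycelium, 150 and 148 RPKM in young fruiting bodies, and 146, 158 and 110 RPKM in fruiting bodies. Its stages overlapped except that both young fruiting body values lay above the mycelium values. Model 3003162 (rank 25, 7011 bases) came next, with 175, 166 and 81.3 RPKM in fruiting bodies and 175 and 107 RPKM in young fruiting bodies, against 78.1, 95.9 and 81.2 RPKM in mycelium. Fruiting body replicate 3 again stood at the mycelial level, and the model was not called (log2 fold change 0.73 ± 0.35, SE, adjusted p = 0.143 in edgeR's test for fruiting bodies against mycelium). Without that library it was called, at 1.00 ± 0.29 (adjusted p = 0.0160). The other 3 of the 5 most abundant members, models 2975323, 3024578 and 2985532, had mean levels of 84.1 to 107 RPKM. Of these, model 2985532 was called lower in fruiting bodies than in mycelium without fruiting body replicate 3 (log2 fold change -0.63 ± 0.23, SE, adjusted p = 0.0422 in edgeR's test), against -0.55 ± 0.20 (adjusted p = 0.0691) with it. At the low end of the members tested, model 2973178 (rank 67, 5961 bases) stayed between 0.478 and 1.89 RPKM in all libraries.

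In young fruiting bodies against mycelium, 29 of the 147 members tested were called (19.7%), beside 26.0% of all models tested. Of these, 16 rose (10.9% of members, beside 15.0% of all models) and 13 fell (8.84%, beside 10.9%). A change of at least 4-fold was called for 1 member upwards (beside 4.75% of all models) and 2 downwards (beside 4.26%), 2.04% of members in all, beside 9.01% of all models. The libraries of the stages did not overlap in 44 members that were higher and 56 that were lower in young fruiting bodies, beside 31.9% and 30.5% of all models.

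Model 2917447 (rank 133, 4962 bases) rose most. It had 8.27 and 7.90 RPKM in young fruiting bodies and 10.6, 11.5 and 7.49 RPKM in fruiting bodies, against 2.02, 1.65 and 2.13 RPKM in mycelium. All 5 fruiting libraries lay well above the 3 mycelium libraries. Its log2 fold change against mycelium was 2.07 ± 0.24 (SE, adjusted p = 0.000683) in young fruiting bodies and 2.36 ± 0.23 (adjusted p = 0.000217) in fruiting bodies by edgeR's test, and these comparisons share the mycelium libraries. It was the only member called at 4-fold or more upwards in either comparison with mycelium, and it kept both calls under every alternative run.

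Model 2936218 (rank 24, 7033 bases) was next among the rises of young fruiting bodies. It had 23.0 and 20.9 RPKM in young fruiting bodies, against 8.01, 7.21 and 8.23 RPKM in mycelium, a difference of 1.49 ± 0.22 on the log2 scale (SE, adjusted p = 0.00205 in edgeR's test). In fruiting bodies it had 13.6, 15.0 and 9.62 RPKM, between the other stages, with a log2 fold change of 0.70 ± 0.20 against mycelium (adjusted p = 0.0273). The call in young fruiting bodies held without any 1 library, while that in fruiting bodies was lost without fruiting body replicate 1 (adjusted p = 0.108) or 2 (0.104), mycelium replicate 1 (0.0791), 2 (0.105) or 3 (0.0721), or young fruiting body replicate 2 (0.0565). It was also lost with the flowcell as a covariate (0.0633) and with only the stages compared (0.0549). The other 14 rises had log2 fold changes of 0.56 to 1.34, and 6 of them were at least 2-fold. The member at rank 50, whose reads are in part shared with other models, was among these, with a log2 fold change of 1.23.

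Model 2977566 (rank 144, 4911 bases) fell most in young fruiting bodies. It had 25.3 and 28.9 RPKM there and 48.1, 35.1 and 45 RPKM in fruiting bodies, against 75.1, 105 and 244 RPKM in mycelium replicates 1, 2 and 3. The mycelium values were spread over more than 3-fold, with replicate 3 far above the others. Its log2 fold change was -2.38 ± 0.50 (SE, adjusted p = 0.0102 in edgeR's test), and -1.73 (adjusted p = 0.00939) without mycelium replicate 3. The call was lost without young fruiting body replicate 1 (adjusted p = 0.0969) or 2 (0.0678).

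Model 3031237 (rank 30, 6900 bases) had 11.4 and 14.7 RPKM in young fruiting bodies, against 62.3, 54.7 and 43.3 RPKM in mycelium. In fruiting bodies it had 6.42, 10.0 and 24.3 RPKM, replicate 3 being highest, and the fruiting and mycelial libraries did not overlap. Its log2 fold change was -2.03 ± 0.53 (SE, adjusted p = 0.0239 in edgeR's test) in young fruiting bodies, and -1.97 ± 0.45 (adjusted p = 0.0124) in fruiting bodies, where it was -2.70 (adjusted p = 5.34e-05) without replicate 3 and was lost with the flowcell as a covariate (adjusted p = 0.0767). The call in young fruiting bodies was lost without mycelium replicate 1 (adjusted p = 0.0592) or 2 (0.0594), or young fruiting body replicate 1 (0.170) or 2 (0.0898). The other 11 falls had log2 fold changes of -1.49 to -0.59, and 4 of them were at least 2-fold.

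These counts for young fruiting bodies depended on single libraries. The 29 calls became 5 without young fruiting body replicate 1 and 6 without replicate 2, where the lone young fruiting body library is assumed to vary like the other stages. They became 13, 13 and 15 without mycelium replicates 1, 2 and 3, and 48 without fruiting body replicate 3. The share over all models moved the same way, to 8.37 and 12.8%, to 17.1, 15.3 and 16.2%, and to 41.2%.

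**Figure D2:**
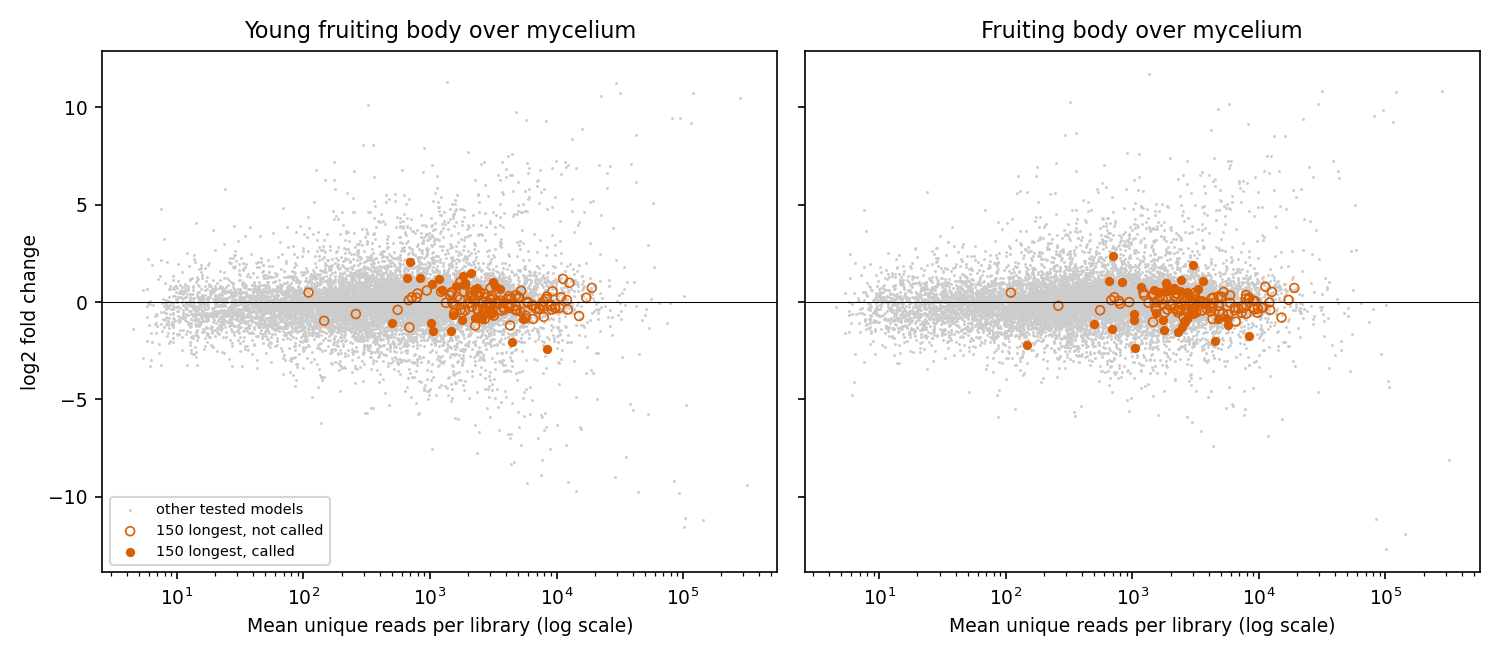
Log2 fold change of each tested model against its mean unique reads per library (log axis), for young fruiting body against mycelium and for fruiting body against mycelium. Grey points are all other models, open orange points are members that were not called and filled orange points are members that were called (29 of 147 and 38 of 147), and most members lie at high read counts and close to 0.

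In fruiting bodies against mycelium, 38 of the 147 members were called (25.9%), beside 31.8% of all models tested. Rises numbered 17 (11.6% of members, beside 18.4% of all models) and falls 21 (14.3%, beside 13.4%). At 4-fold or more, 1 rise (beside 4.67% of all models) and 2 falls (beside 3.5%) were called, 2.04% of members beside 8.17% of all models. The libraries did not overlap in 30 members that were higher and 35 that were lower in fruiting bodies, beside 25.6% and 21.0% of all models. Across the 3 stages together, 35 members were called (23.8%), beside 28.7% of all models.

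Behind model 2917447, described above, model 2951426 (rank 103, 5289 bases) had the second largest rise. It had 33.6, 66.6 and 29.4 RPKM in fruiting bodies and 24.1 and 13.9 RPKM in young fruiting bodies, against 7.74, 16.5 and 10.3 RPKM in mycelium. Fruiting bodies lay above both other stages, which overlapped each other. Its log2 fold change against mycelium was 1.91 ± 0.41 (SE, adjusted p = 0.00963 in edgeR's test), and 2.53 (adjusted p = 0.00989) with the flowcell as a covariate. The other 15 rises had log2 fold changes of 0.53 to 1.11, and 4 were at least 2-fold.

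Model 2990904 (rank 35, 6703 bases) fell most in fruiting bodies. It had 1.90, 2.04 and 3.91 RPKM in fruiting bodies and 4.41 and 5.0 RPKM in young fruiting bodies, against 16.9, 9.37 and 13.4 RPKM in mycelium. The 3 stages did not overlap, with young fruiting bodies in between. Its log2 fold change against mycelium was -2.34 ± 0.34 (SE, adjusted p = 0.00154) in fruiting bodies and -1.49 ± 0.38 (adjusted p = 0.0214) in young fruiting bodies by edgeR's test. In young fruiting bodies the call was lost without mycelium replicate 1 (adjusted p = 0.0582) or 3 (0.0569), or young fruiting body replicate 1 (0.148) or 2 (0.0847).

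Model 1851427 (rank 47, 6442 bases) showed the same order of stages at the second lowest level of the members tested. It had 0.276, 0.291 and 0.526 RPKM in fruiting bodies, from 29, 45 and 62 reads, and 0.825 and 0.905 RPKM in young fruiting bodies, against 1.79, 1.52 and 1.76 RPKM in mycelium. Its log2 fold change in fruiting bodies against mycelium was -2.21 ± 0.31 (SE, adjusted p = 0.00139 in edgeR's test). The other 19 falls had log2 fold changes of -1.97 to -0.57, and 9 were at least 2-fold. Both falls of at least 4-fold kept their calls under every alternative run.

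The 38 calls in fruiting bodies became 20, 18 and 19 without mycelium replicates 1, 2 and 3, beside 20.8, 20.1 and 19.6% of all models. They became 21 without fruiting body replicate 1, 19 without replicate 2 and 62 without replicate 3, beside 21.1, 20.4 and 48.9% of all models. With the flowcell as a covariate 8 members were called, beside 9.94% of all models. On the flowcell that all stages share, where fruiting body replicate 2 is the lone fruiting body library, 25 were called, beside 28.0%.

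**Figure D3:**
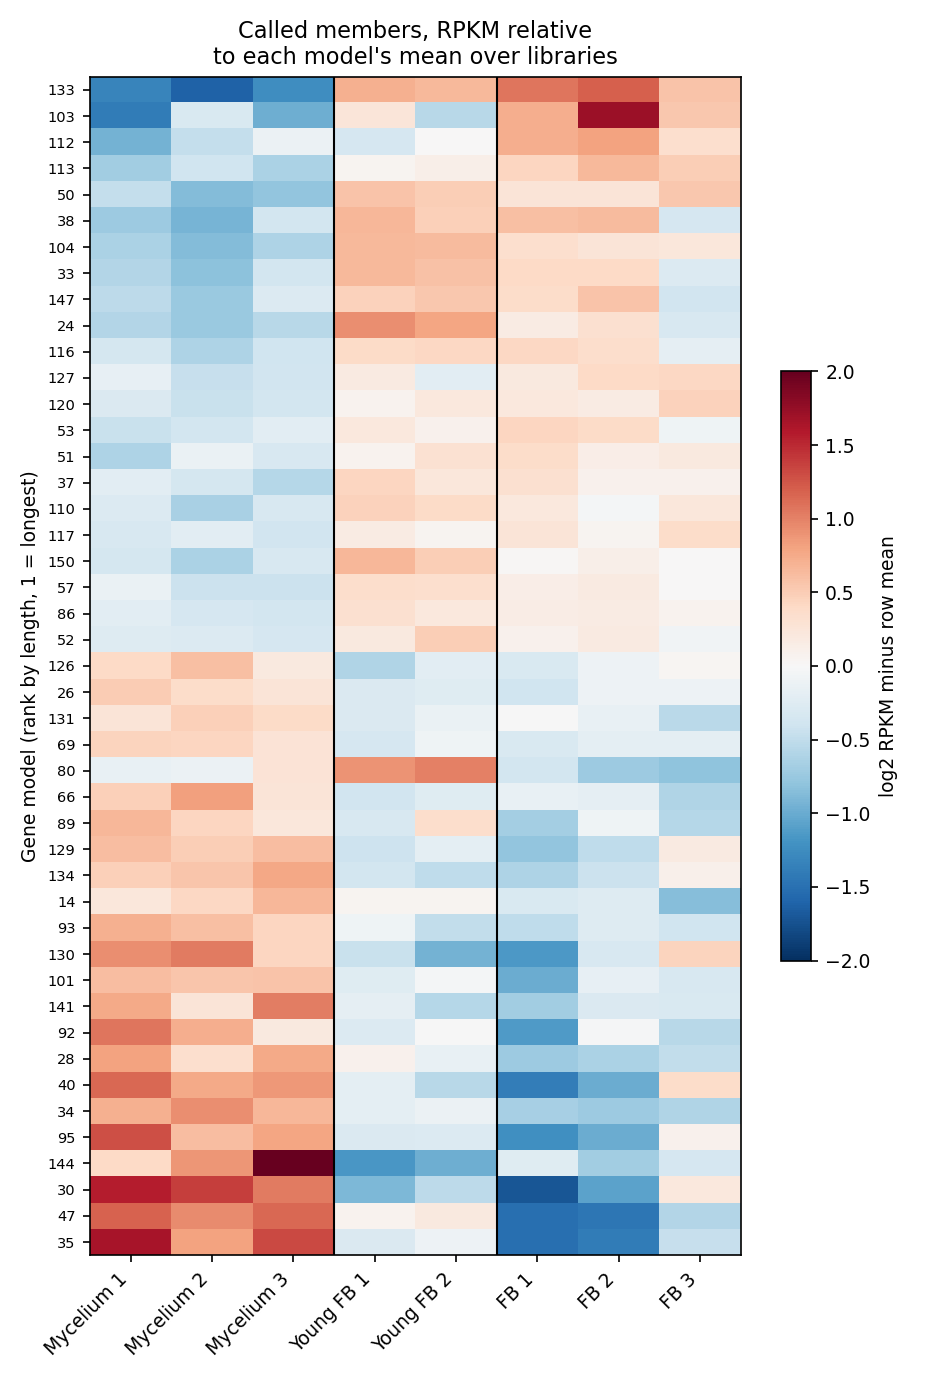
Log2 RPKM minus the mean of the row in each of the 8 libraries (columns, by stage) for the 45 members called in young fruiting bodies or fruiting bodies against mycelium (rows, labelled by length rank). The rows are sorted by the log2 fold change of fruiting bodies against mycelium, which is above 0 in 22 rows and below 0 in 23, and the column of fruiting body replicate 3 is paler than those of replicates 1 and 2 in many rows.

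In fruiting bodies against young fruiting bodies, no member and no model at all was called by edgeR's test (0.0% of all models). At an unadjusted p below 0.05 there were 13 members (8.84%), beside 7.89% of all models, while DESeq2 called 2 members (beside 1.88% of all models) and limma-voom 0. Libraries did not overlap in 24 members that were lower in fruiting bodies (16.3%, beside 9.82% of all models) and in 7 that were higher (4.76%, beside 10.1%). The absolute log2 fold change had a median of 0.13 over the members and 0.24 over all models tested.

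The member with the smallest p was model 2934472 (rank 80, 5704 bases). It had 5.45, 4.27 and 4.03 RPKM in fruiting bodies, against 13.2 and 14.2 RPKM in young fruiting bodies, and 6.33, 6.50 and 8.49 RPKM in mycelium. Young fruiting bodies stood highest and fruiting bodies lowest, with no overlap between any 2 stages. The log2 fold change of fruiting bodies against young fruiting bodies was -1.58 ± 0.22 (SE, adjusted p = 0.0859 in edgeR's test), and -1.50 ± 0.24 (adjusted p = 0.0304) without fruiting body replicate 3. Against mycelium its log2 fold change was 0.95 ± 0.22 (adjusted p = 0.0147) in young fruiting bodies and -0.63 ± 0.20 (adjusted p = 0.0400) in fruiting bodies. It was the 1 member called in opposite directions in these comparisons, which share the mycelium libraries. Its call in fruiting bodies against mycelium was followed only without fruiting body replicate 3, and not through the other alternatives. The call in fruiting bodies was lost without fruiting body replicate 3 (adjusted p = 0.0562), and that in young fruiting bodies without mycelium replicate 1 (0.0558) or 2 (0.0610), or young fruiting body replicate 1 (0.0740) or 2 (0.0890).

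Model 1851427, given above, had the next smallest p downwards, at -1.25 ± 0.33 on the log2 scale (SE, adjusted p = 0.331 in edgeR's test). It was called without fruiting body replicate 3 (-1.61, adjusted p = 0.0304) and by DESeq2. Without that library 0.649% of all models were called, and models 2934472 and 1851427 were the 2 members among them. Upwards the smallest p values belonged to model 2986437 (rank 112, 5150 bases) and model 2951426. Model 2986437 had 33.3, 34.9 and 25.3 RPKM in fruiting bodies, against 15.9 and 20.2 RPKM in young fruiting bodies. Its fruiting body values all lay above the young fruiting body values, and its log2 fold change of 0.79 ± 0.28 (SE) had an adjusted p of 0.501.

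Differences between stages were smaller in the long models than in models in general, as a description with no test. The highest stage mean was less than 1.5-fold above the lowest in 92 of the 147 members tested (62.6%), against 39.2% of all models, and at least 4-fold above it in 5 (3.4%), against 12.1%. The median of this ratio was 1.40 in the members and 1.44 in the next 150 models by length. It was 1.66 in all models tested and 1.60 in other models of similar read count. That last set was made by sorting all tested models into 20 bins of mean unique reads and weighting the other models of each bin by its number of members. In 74 members (50.3%) no difference across stages was called and every log2 fold change was within 0.5, against 32.4% of all models and 36.8% of those of similar read count. Examples are model 2987441, given above, and model 2975323 (rank 128, 4985 bases), which stayed between 83.1 and 137 RPKM in all 8 libraries. These ratios and steady members were taken from all 8 libraries, and were not taken again without fruiting body replicate 3. Without it, the median absolute log2 fold change of fruiting bodies against mycelium was 0.47 in the members and 0.63 in models of similar read count.

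Other models with as many reads were called more often. In young fruiting bodies against mycelium the models of similar read count were called in 29.7%, beside 19.7% of members, with a median absolute log2 fold change of 0.55, beside 0.40. A difference of at least 4-fold, called or not, was seen in 2.04% of members and 12.4% of models of similar read count. In fruiting bodies against mycelium the shares called were 25.9% of members and 35.3% of models of similar read count, with medians of 0.40 and 0.54 and with 2.04% and 10.7% at 4-fold or more. These models were higher per length than the members, with a median of 79.4 RPKM against 22.2 RPKM, as shorter models need a higher level for the same reads. Among models of similar RPKM 27.2 and 32.6% were called for young fruiting bodies and for mature ones against mycelium. These are descriptions of models that are not replicates of each other, and no test of the difference was made.

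Replicates were also closer to each other in the long models. The median SD of log2 CPM within a stage was 0.21 in the members, 0.34 in all models tested and 0.30 in models of similar read count. The median biological coefficient of variation fitted by edgeR was 0.230 in the members, 0.267 in all models and 0.254 in models of similar read count. In the next 150 models by length the median SD was 0.27 and the median coefficient 0.240. Signed log2 fold changes had medians of -0.07 in the members and -0.01 in all models in young fruiting bodies, and of -0.10 and 0.05 in fruiting bodies, both against mycelium.

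**Figure D4:**
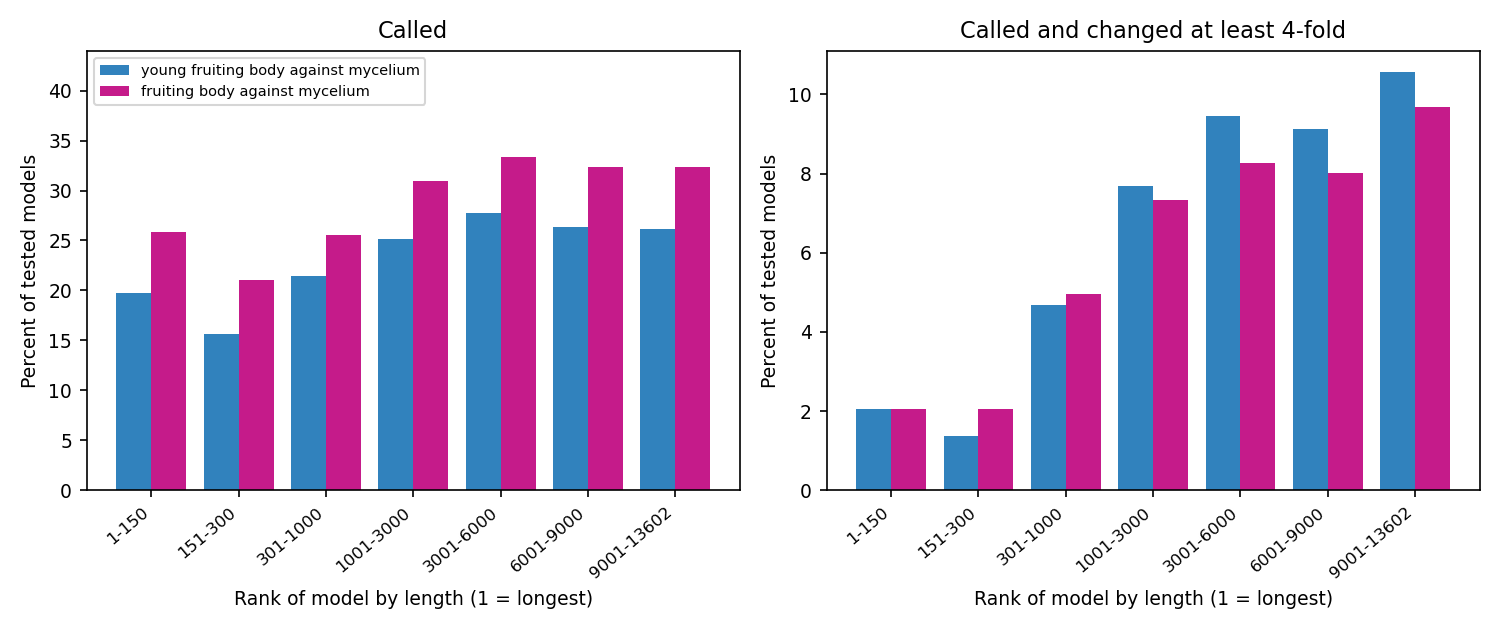
Percent of tested models called, and percent called with a change of at least 4-fold, in classes of length rank from the longest to the shortest models, for young fruiting body and fruiting body against mycelium. Calls of at least 4-fold made up 2.04% of ranks 1 to 150 in both comparisons, and 10.6% and 9.69% of the shortest class.

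The 150 longest were not set off from the models next to them in length. Of the next 150 models, 4830 to 4005 bases long, 147 were tested, and 23 (15.6%) were called for young and 31 (21.1%) for mature fruiting bodies against mycelium, fewer than among the members. Calls of at least 4-fold made up 1.36% and 2.04% of them. These shares were 4.67% and 4.96% at ranks 301 to 1000, and 7.69% and 7.32% at ranks 1001 to 3000. They were 9.46% and 8.27% at ranks 3001 to 6000, and 9.13% and 8.01% at ranks 6001 to 9000. The shortest class, ranks 9001 to 13602, had 10.6% and 9.69%. The median absolute log2 fold change in young fruiting bodies was 0.40 at ranks 1 to 150, 0.45 at ranks 151 to 300, 0.42 at ranks 301 to 1000, 0.51 at ranks 1001 to 3000 and 0.64 in the shortest class. The share of calls of at least 4-fold thus rose mainly from ranks 151 to 300 up to ranks 3001 to 6000, rather than at rank 150. It changed less among the shorter classes. Median reads also differed, at 2951 in the longest class and 296 in the shortest.

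Within the set, length showed no steady relation to the calls. Members at ranks 1 to 50 had a median of 14.8 RPKM, with 10 of 49 called for young and 13 for mature fruiting bodies against mycelium. Members at ranks 51 to 100 had 24.2 RPKM, with 7 and 9 of 49 called, and those at ranks 101 to 150 had 23.6 RPKM, with 12 and 16 of 49. Spearman's rho between length and RPKM over the 147 members was -0.172, a description across models that share the same libraries.

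At the edge of the set, model 2911855, the last member but 1 (4845 bases), had stage means of 20.4 RPKM in mycelium, 15.1 RPKM in young fruiting bodies and 15.7 RPKM in fruiting bodies. The last member, model 2988159 (rank 150, 4830 bases), had 20.5, 41.3 and 28.6 RPKM at these stages. Model 2972735, of the same length and just outside, had 2.36, 7.83 and 18.6 RPKM. Its fruiting bodies had 12.5, 8.65 and 34.5 RPKM, in order of replicate. Its log2 fold change of fruiting bodies against young fruiting bodies was 1.24, and 0.43 without fruiting body replicate 3. The model after 2972735, model 3082958 (4827 bases), had stage means of 28.2, 38.2 and 38.6 RPKM. With model 2972735 in place of the last member, 29 members were called for young and 39 for mature fruiting bodies against mycelium.

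Fruiting body replicate 3, the library that stood apart, lay farther from the other fruiting bodies than these lay from each other. The median absolute log2 difference in the members was 0.34 between replicate 3 and the mean of replicates 1 and 2, and 0.17 between replicates 1 and 2. Of the 38 members called in fruiting bodies against mycelium, replicate 3 lay between the other fruiting bodies and mycelium in 20 (52.6%), beside 62.9% of all models called. Its part in the counts of calls is shown by the values without it. Across the 3 stages 60 members (40.8%) were called without it, beside 47.6% of all models. In young fruiting bodies 32.7% of members and 43.1% of models of similar read count were then called against mycelium, and in fruiting bodies 42.2% and 48.9%.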

How the data were processed

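RNA-seq libraries of 3 stages were grouped by the labels. Per the labels' protocols, an Illumina TruSeq RNA v2 kit was used. This kit keeps no strand information, so reads of a model and of an overlapping antisense transcript cannot be told apart. Counts of unique and total gene reads were used as deposited for 13602 models, with model lengths, all named by the file headers. The authors' deposited matrix of log2 values holds 147 members. After centring each library, these values lay within 0.00585 of log2 total reads per length, and the matrix was used only for that check. The submitters' processing notes list R 3.0.2, limma 3.18.13 and edgeR 3.4.2 but give no role. Neither aligner nor genome build is named, and both are not given in the sources used here.

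Unique reads were tested in R 4.3.3 with edgeR 4.0.16 (filterByExpr by stage, TMM, robust dispersions and quasi-likelihood fit) in 1 fit of all 8 libraries, with stage as the only term. Library totals are in the report, and non-unique reads made up 0.447 to 0.638% of a library and 0.305 to 0.447% of the members' reads. The floor of 3 reads covers counting error alone, as there were no molecular identifiers. SE is the absolute log2 fold change over the square root of F, and log2 CPM used a prior count of 2. The code was tested on simulated data.

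The members, comparisons and naming rule were chosen with earlier results of these data known. The rule took the 5 longest members, the 5 highest and 3 lowest, up to 10 called rises and 10 called falls per comparison with mycelium, the 3 smallest p values each way between fruiting stages, 5 steady members, members that were uncertain or untested, and the models at the edge of the set. Since identifiers have no gene names here, at most 2 rises and 2 falls per comparison are printed and the rest summarised. Model 2973178 was added after its values were seen. No gene list was used.

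Alternatives were DESeq2 1.42.0, limma-voom (limma 3.58.1), other normalizations, filters and reads, a length offset, set sizes of 75 and 300, a flowcell covariate, the shared flowcell alone, only the stages compared, a replicate block and each library left out. Added after seeing the data were the tied model in place of the last member, and the similar-read-count values without fruiting body replicate 3.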

Additional observations from a re-analysis of the deposited data

How the results depend on the processing

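The log2 fold changes followed through every alternative were those of the 20 largest called rises and falls per comparison with mycelium and of the 6 smallest p values between the fruiting stages, and none of these reversed. The longest, most abundant, steady and edge models were followed only without fruiting body replicate 3, where small uncalled differences could change sign, as in model 2911855 between fruiting and young fruiting bodies (-0.10, against 0.05 with all libraries). Apart from leaving out each library in turn, there were 51 alternatives of the counts of members called. Those with the shared flowcell alone and with only the stages compared used fewer libraries. Of the 51, 45 stayed within 1.5 times. These include the alternatives between the fruiting stages that gave 0 calls, as the fit of all 8 libraries did, and these say little about stability. Outside it, young fruiting bodies against mycelium gave 13 calls with the replicate block (8 higher and 5 lower, beside 17.7% of all models). Fruiting bodies against mycelium gave 8 with the flowcell covariate and 25 on the shared flowcell alone. Fruiting bodies against young fruiting bodies gave 2 with DESeq2. Across the 3 stages, 18 were called with the flowcell covariate and 23 with the replicate block. Among the models given above, the block also lost the fruiting body call of model 2936218 (adjusted p = 0.0537 in edgeR's test). The young fruiting body calls of models 3031237 and 2990904 were lost with it too (both 0.0504). With each library left out, the counts were 5 to 48 in young fruiting bodies against mycelium, 18 to 62 in fruiting bodies against mycelium, 0 to 2 between the fruiting stages and 14 to 60 across the stages. Without fruiting body replicate 3, 0.617% of models of similar read count were called between the fruiting stages. Deviations of same-numbered libraries from their stage means correlated at -0.278 to 0.196. Deviations within a stage depend on each other and different-numbered libraries were not compared, so these values do not settle whether the numbers pair the samples. The cause of these shifts was not tested. With 2 or 3 libraries a stage, small differences may go uncalled.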
